A study of Homo sapiens with 4 samples.

Results

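After treatment with 2-D08, SK-LMS-1 cells had reads on 142 of 19381 genes for which neither untreated library held a single count. They were chosen by their counts: 0 in both untreated libraries, at least 3 in both treated ones, with HSPA6 left out (0.733% of the other 19380 genes). SK-LMS-1 is an established human cell line whose labels give uterine leiomyosarcoma as the cell type. The 2 untreated libraries came from cells without compound, and no vehicle is named. The 2 treated libraries came from cells exposed for 48 h to 50 µM 2-D08, a flavone that blocks attachment of SUMO, a small protein tag, to other proteins. All 4 libraries were made from total RNA after removal of ribosomal RNA. Separate cultures are not stated for the libraries within a group, and any p-value therefore reflects spread among libraries that may be purely technical.

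A cell line keeps most genes of other tissues silent. Repressive chromatin, DNA methylation and repressor proteins hold such genes down, and SUMO is attached to many of these repressors. Genes without reads in a culture are therefore mostly genes that define another cell type, such as neurotransmitter enzymes, mucins or germ cell proteins.

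Depth bears directly on a set defined by zeros. The untreated libraries held 29586475 and 16628710 counts, and the treated ones 14796702 and 31300635, so the group totals were close (46215185 and 46097337). Of counts above 0, 89.0% were even numbers in untreated replicate 1 and 88.8% in treated replicate 2, against 48.4% and 47.9% in the other library of each group. In treated replicate 2 all but 4 of the 142 genes had an even count, so how many separate reads a count there stands for is not known. Labelled identity was checked with 6 smooth muscle markers. TAGLN stood at 27.1 and 26.1 CPM (counts scaled to library size with TMM factors) untreated and fell by 0.85 on the log2 scale to a mean of 14.8 (edgeR adjusted p = 0.000292). CNN1 fell by 1.03 (edgeR adjusted p = 0.00796), a call that ended with DESeq2 (adjusted p = 0.051), without untreated replicate 2 (edgeR adjusted p = 0.0532) and on both TPM scales. ACTA2 stood at 6.64 and 4.36 CPM untreated and 3.06 and 4.34 treated, and MYH11 stayed under 1 CPM in all 4 libraries. MYOCD had 0 counts untreated and 2 and 2 treated, and DES was at 0 in all 4.

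The rule fixed the direction of the difference, so all levels of the 142 genes are a description without a test. They summed to 702 and 1244 counts in treated replicates 1 and 2, which is 46.6 and 40.3 CPM. In bulk RNA, reads from a few cells at a high level and reads from all cells at a low level cannot be told apart. The mean level over the treated libraries ran from 0.148 to 1.64 CPM with a median of 0.263. Only 4 genes had at least 10 counts in both treated libraries: TINCR, FRG2B, RIMBP3C and CCDC73. For 52 genes the smaller treated count was exactly 3. A floor of 3 counts was set over both untreated libraries. It covers counting error on the untreated side only and takes each count as a separate read. Treated levels were 2.01-fold to 25.5-fold above that floor, with a median of 3.86-fold. Error in the treated counts, which the rule had selected, is not included, so these are not lower bounds. On the deposited TPM scale, which accounts for transcript length, 6 of the 142 reached 0.5 in both treated libraries and only ITIH4 reached 1 in both. A single gene, the lactoperoxidase gene LPO, was listed at a TPM of 0.03 in untreated replicate 2 although its count there was 0.

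The rule was also run the other way round. Only 10 genes had 0 counts in both treated libraries and at least 3 in both untreated ones. The share meeting the rule was 0.733% of 19380 genes, against 0.0516% for the reverse. Of the 10, ATF7-NPFF (29 and 10 counts untreated) and URGCP-MRPS24 (15 and 11) are read-through genes that join neighbouring genes, so their reads cannot be cleanly assigned. TSPAN32, a tetraspanin gene (16 and 3), MUSTN1, a musculoskeletal nuclear protein gene (14 and 3), and GPT, an alanine aminotransferase gene (10 and 3), came next. With the minimum lowered to 1 count, 598 genes had reads only after treatment and 50 only before.

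TINCR had the highest level. It was first described as a long RNA of differentiating epidermis and is now listed with a protein-coding transcript (chromosome 19, 5558167 to 5567953, GRCh38). It had 0 and 0 counts untreated and 24 and 52 treated, or 1.59 and 1.69 CPM (mean 1.64 ± 0.0643, SD, n = 2), 25.5-fold above the untreated floor. The 2 treated libraries lay close together. The nearest tested gene upstream on the same strand, SAFB2, which encodes a scaffold attachment factor, lay 19.0 kb away. SAFB2 rose by 0.57 on the log2 scale (edgeR quasi-likelihood adjusted p = 0.000801), but limma on log2(TPM + 0.1) and log2(TPM + 1) gave adjusted p of 0.123 and 0.124.

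FRG2B, a gene of a family near the end of chromosome 10 (133623895 to 133626795), followed with 21 and 44 counts in the treated libraries (1.40 and 1.43 CPM) and 0 in both untreated ones. It has near-identical copies, so its share of reads is uncertain. Its copy FRG2 had 0 and 1 counts untreated and 14 and 20 treated, and FRG2C had 0 and 3 untreated and 2 and 2 treated. FRG2 thus had more counts in both treated libraries, whereas the FRG2C ranges overlapped. FRG2 passed a filter on low counts only through its treated counts, and was picked after they were seen. Its call as higher is therefore a description (log2 fold change 4.81, edgeR adjusted p = 0.00253). Leaving out untreated replicate 1 ended that call (edgeR adjusted p = 0.0559), as did both TPM scales.

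RIMBP3C showed a different pattern in its family. It belongs to 3 near-identical genes on chromosome 22 that code for a protein of the sperm manchette, and had 19 and 14 counts in the treated libraries. Its copies had reads before treatment: RIMBP3 had 40 and 16 counts untreated and 17 and 21 treated, and RIMBP3B had 52 and 26 untreated and 11 and 17 treated. The 3 copies together gave 3.10 and 2.54 CPM untreated and 3.12 and 1.69 CPM treated. These ranges overlap, so the family sum did not separate the groups. That RIMBP3C alone did was fixed by the rule. RIMBP3B was called lower (log2 fold change -1.42, edgeR adjusted p = 0.0192), a call lost with DESeq2 (adjusted p = 0.123) and on both TPM scales. NPIPB8, of a large family of chromosome 16 repeats (0 and 0, then 6 and 12 counts), stood beside 9 other NPIPB genes with untreated reads. HCAR3, a hydroxycarboxylic acid receptor gene (0 and 0, then 4 and 4), lay 11.4 kb from its near copy HCAR2, which had 0 and 1 counts untreated and 7 and 27 treated (log2 fold change 4.71, edgeR adjusted p = 0.00353, or 0.0699 without untreated replicate 1). The HCAR2 call was also lost on both TPM scales. HCAR2 too passed the filter on low counts only through its treated counts and was picked as a relative, so its call is a description.

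**Figure D1:**
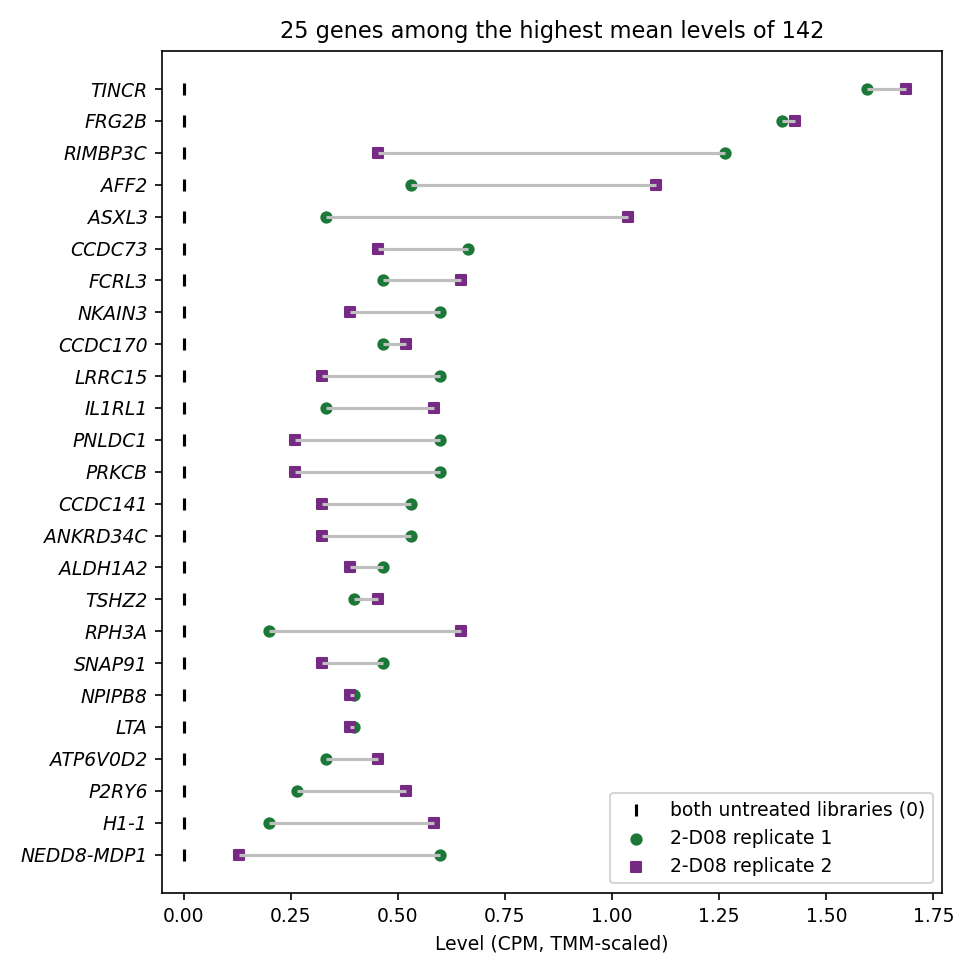
Level in CPM (x axis, TMM-scaled) of 25 genes among those with the highest mean levels of the 142, with a circle for treated replicate 1, a square for treated replicate 2 and a tick at 0 for both untreated libraries. TINCR and FRG2B stand above the others with both treated libraries close together, whereas RIMBP3C, AFF2, ASXL3 and RPH3A differ widely between the treated libraries.

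The treated libraries often differed from each other. Level in treated replicate 2 relative to treated replicate 1 ran from 0.217 for NEDD8-MDP1 (9 and 4 counts) to 3.25 for RPH3A (3 and 20), with a median of 0.732. It lay between 0.5 and 2 for 99 of the 142 genes, at or below 0.5 for 36 and at or above 2 for 7. RPH3A, with H1-1 (3 and 18) and KRTAP3-2 (3 and 16), had the highest levels among genes just inside the threshold. Just outside it lay PLGLB1 (9 and 2), KRTAP4-8 (2 and 16) and FIBIN (8 and 2), among 193 genes with no untreated reads and a smaller treated count of 2. A further 60 genes met the treated minimum with a single untreated count. The highest of those were RASD1 (0 and 1 untreated, 55 and 122 treated), ARC (0 and 1, then 43 and 44) and PRLR (0 and 1, then 14 and 22), whose treated levels exceeded those of most of the 142.

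The genes were sorted by textbook function after their counts had been seen, so the group sizes carry no test. The largest group, 37 genes, is known from neurons, neuroendocrine cells and sensory cells, and summed to 11.7 CPM in treated replicate 1 and 11.8 in treated replicate 2. AFF2, a nuclear protein gene of the X chromosome (148500617 to 149000663) linked to an intellectual disability syndrome, had 8 and 34 counts treated. ASXL3, a chromatin protein gene on chromosome 18, had 5 and 32. In both of these treated replicate 2 was the higher library after scaling. Genes of the synapse included SNAP91 (7 and 10), which acts in clathrin coats, AMPH (5 and 12), which encodes amphiphysin, RPH3A (3 and 20), a synaptic vesicle protein gene, and SYN2 (4 and 4), a synapsin gene. MYT1L, a neuronal zinc finger repressor gene, had 8 and 6 counts, and DCX, a microtubule protein gene of migrating neurons, 5 and 12. Enzymes and receptors of transmission were GAD2 (3 and 6), which makes GABA, NOS1 (5 and 12), which makes nitric oxide, the glutamate receptor gene GRIA1 (3 and 4) and the neuropeptide Y receptor gene NPY1R (4 and 12).

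A group of 23 genes is known from epithelia and epidermis, and summed to 8.24 and 7.20 CPM in the treated libraries, to which TINCR gave more than any other gene. CDH1, which encodes the epithelial adhesion protein E-cadherin, had 0 and 0 counts untreated and 5 and 12 treated. Its mesenchymal relative CDH2 had 13529 and 7716 counts untreated and 5814 and 12968 treated, far above CDH1 in all libraries. Of the 23, 6 were mucins, the large glycoproteins of mucus and apical membranes. They were MUC17 (7 and 8), MUC16 (7 and 6), MUC3A (6 and 6), MUC22 (3 and 10), MUC19 (5 and 4) and MUC5AC (4 and 4). Of 17 MUC genes in the table, 10 had no untreated reads. The 11 MUC genes outside the set summed to 8.06 and 5.27 CPM untreated and 8.50 and 7.26 CPM treated, and the groups overlapped. The desmosomal cadherin gene DSG1 had 5 and 6 counts and DSC1 3 and 6, whereas DSG2, their relative in simple epithelia, had 1596 and 946 untreated and 761 and 1618 treated. Their relative DSG3 went the other way, with 12 and 8 counts untreated and 1 and 2 treated. DSC3 had 0 and 0 untreated and 1 and 10 treated, and DSC2 was at 0 in all 4 libraries. Of the other epithelial markers checked, KRT5 was at 0 in all 4 libraries, KRT14 had 2 and 2 counts in the treated ones only, KRT20 had 2 and 0 untreated and none treated, and EPCAM had 24 and 8 untreated and 10 and 16 treated. Without CDH1, whose counts the rule had fixed, these 4 markers summed to 0.876 and 0.484 CPM untreated and 0.797 and 0.583 CPM treated, and the groups overlapped.

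Immune genes numbered 16 and summed to 4.98 and 4.47 CPM in the treated libraries. FCRL3, an Fc receptor-like gene of lymphocytes, had 7 and 20 counts, and PRKCB, a protein kinase C gene abundant in B cells, had 9 and 8. LTA, which encodes the cytokine lymphotoxin alpha, had 6 and 12 counts (0.399 and 0.389 CPM). The neighbouring cytokine gene TNF, 1.24 kb away, had 2 and 0 counts untreated and 13 and 24 treated (log2 fold change 4.08, edgeR adjusted p = 0.00257). TNF passed the filter on low counts only through its treated counts and was picked as a neighbour, so its call is a description. LTB, the next gene of that cluster, had 0 and 1 untreated and 1 and 0 treated. Of the receptors, IL1RL1, which binds interleukin 33, had 5 and 18 counts and IL18R1, which binds interleukin 18, had 3 and 4. They lie 3.44 kb apart on chromosome 2 (102311563 to 102398776). In the same cluster IL1R1, the interleukin 1 receptor gene, rose by 1.00 on the log2 scale from 7.15 to 14.4 CPM (edgeR adjusted p = 0.000642, against 0.0514 with limma on log2(TPM + 0.1)), whereas IL18RAP was at 0 in all libraries. The chemokine gene CXCL11 had 3 and 4 counts, and its relatives CXCL9 (0 and 2) and CXCL10 (0 and 0) fell short of the rule. Of 10 leukocyte markers, MS4A1 and HBB were at 0 in all libraries and PTPRC had 6 and 4 counts untreated and 4 and 16 treated. Of the 3 that could be tested, 2 were called higher and 0 lower by edgeR, with 0 lower also at an unadjusted p under 0.05 and by DESeq2. The tested marker without a call, CD14, leaned lower (log2 fold change -0.63, edgeR adjusted p = 0.452). It had 18 and 8 counts untreated and 3 and 14 treated. CD68, a lysosomal protein gene of macrophages that other cells also express, averaged 62.9 CPM untreated and 93.0 CPM treated and rose by 0.57 on the log2 scale (edgeR adjusted p = 0.000503). LCP1, an actin-bundling protein gene of leukocytes, averaged 1.00 CPM untreated and 5.18 CPM treated and rose by 2.33 (edgeR adjusted p = 7.26e-05). Limma gave LCP1 an adjusted p of 0.126 on log2(TPM + 0.1) and 0.0915 on log2(TPM + 1). The 10 markers summed to 62.6 and 67.5 CPM untreated and 98.9 and 100.2 CPM treated, mostly from CD68. The part of other cell types in these reads was not tested.

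Smaller groups covered other organs. Germline, placental and steroid genes (12) had the lowest median level, 0.181 CPM. RIMBP3C, at a mean of 0.858 CPM, had been sorted under other functions and is not among these 12. PNLDC1, a nuclease that trims piRNAs, had 9 and 8 counts, CYP19A1, the aromatase, 3 and 8, and LDHC, the testis lactate dehydrogenase, 3 and 4. Among 12 liver and kidney genes, ITIH4, a plasma protein gene, had 5 and 10 counts and the highest deposited TPM shared by both treated libraries (1.36 and 1.12). The thick limb transporter gene SLC12A1 had 4 and 10, and APOE, a lipoprotein gene, 6 and 6. Among 7 muscle genes, MYBPC1, a myosin binding protein gene, had 4 and 12. A group of 12 skeletal, vascular, hormonal and matrix genes held LRRC15, a membrane protein gene of matrix-forming fibroblasts (9 and 10), ALDH1A2, which makes retinoic acid (7 and 12), the endothelial receptor gene KDR (5 and 6) and SOST, the bone protein sclerostin (3 and 4). The other endothelial markers checked did not share a direction. PECAM1 had 14 and 2 counts untreated and 18 and 40 treated, whereas CDH5 had 22 and 24 untreated and 5 and 18 treated. VWF had 2 and 0 untreated and 1 and 0 treated. The remaining 23 genes had other or mixed functions, including HRK, a pro-apoptotic BCL2 family gene (4 and 4), and the linker histone gene H1-1 (3 and 18), which lies in the histone cluster of chromosome 6.

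**Figure D2:**
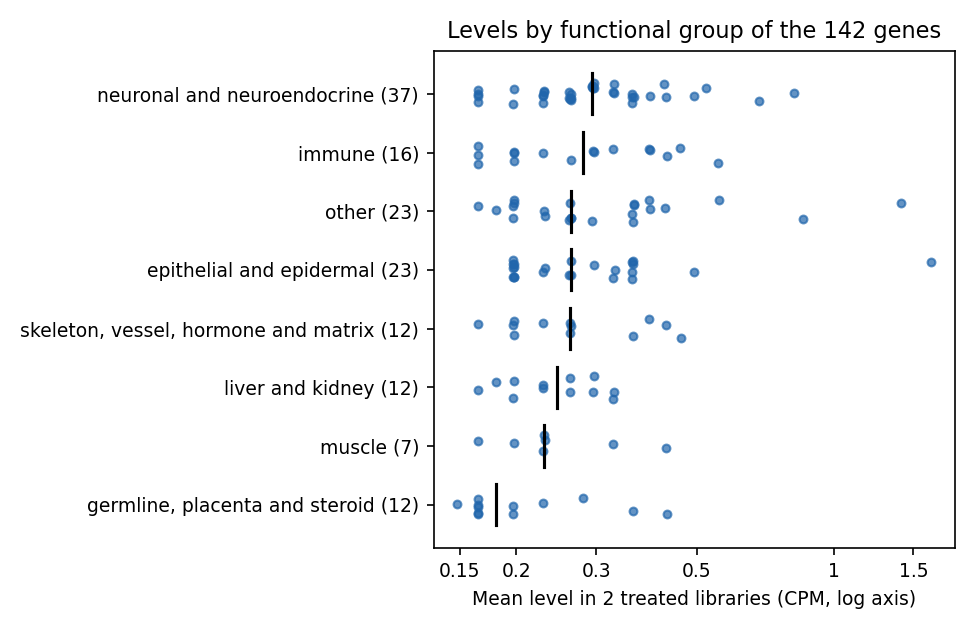
Mean level over both treated libraries (x axis, CPM on a log scale) for each of the 142 genes, 1 point a gene, by functional group with the number of genes in brackets and a bar at the group median. Medians run from 0.181 CPM for germline, placental and steroid genes to 0.294 CPM for neuronal genes, and only TINCR and FRG2B exceed 1 CPM.

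Lists of genes known for a tissue or pathway show what share of silent genes had reads after treatment. Of 4214 genes with no untreated reads, 598 (14.2%) had reads in both treated libraries and 142 (3.37%) met the rule. Of 46 neuronal genes 18 had no untreated reads, 8 of which had reads in both treated libraries and 2 (DCX and GRIA1) met the rule. Of 50 leukocyte genes 24 had no untreated reads, 8 had reads in both treated libraries and 0 met the rule. Of 48 germline genes 29 had no untreated reads, 4 had reads in both treated libraries and LDHC met the rule. Of 416 olfactory receptor genes, which are short and silent outside the nose, 374 had no untreated reads, 6 had reads in both treated libraries and 0 met the rule. Of 50 genes of NF-kappa-B and inflammation 14 had no untreated reads, 4 had reads in both treated libraries and 2 (LTA and CXCL11) met the rule. Among 68 histone genes 11 had no untreated reads, 2 had reads in both treated libraries and H1-1 met the rule. Interferon-stimulated genes without untreated reads were 5 of 41, and 0 had reads in both treated libraries. For heat shock genes, with HSPA6 left out, it was 3 of 38, again with 0.

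List genes that passed a filter on low counts were compared by edgeR. Counts in either group suffice to pass it, so a gene barely read before treatment could enter through its treated counts. Across 12906 genes tested, 17.1% were called higher and 16.9% lower at an adjusted p under 0.05, with a median log2 fold change of -0.0033. Of the 142 genes only 7 passed the filter on low counts (TINCR, FRG2B, RIMBP3C, AFF2, CCDC73, FCRL3 and CCDC170), and all 7 were called higher. The rule used the same contrast and fixed their direction, so nothing is read from that count. Without untreated replicate 1, 13 were tested and 7 called. Of tested genes of NF-kappa-B and inflammation 21 of 30 were higher and 0 lower by edgeR (median log2 fold change 1.40; 0 lower also at an unadjusted p under 0.05 and by DESeq2), led by BIRC3, an inhibitor of apoptosis (log2 fold change 3.21 ± 0.11, SE). Of neuronal genes 2 of 17 were higher and 5 lower (median -0.043). GRIN2A, a glutamate receptor gene, fell by 2.58, whereas NEFM rose by 1.40. Among 4 neural markers checked (RBFOX3, SYP, SNAP25 and GFAP), 1 of 3 tested was higher by edgeR. It was SNAP25 (log2 fold change 0.78, edgeR adjusted p = 0.0398), which DESeq2 did not call. Germline genes gave 3 higher and 1 lower of 11 (median 0.34), among them SSX1, a cancer-testis gene (1.32 ± 0.20, edgeR adjusted p = 0.000199). Leukocyte genes gave 4 higher and 0 lower of 9 by edgeR (median 0.74), again with 0 lower unadjusted and by DESeq2. Heat shock genes gave 16 higher and 3 lower of 32 (median 0.36), interferon-stimulated genes 7 and 5 of 29 (median 0.14) and histones 10 and 2 of 32 (median 0.81). Olfactory receptors gave 0 higher and 0 lower of 5 by edgeR and by DESeq2 (median 0.20), with 1 higher and 0 lower at an unadjusted p under 0.05. Several of these counts were smaller by DESeq2, which called 4 histones, 1 germline gene and 1 neuronal gene higher. With a mean of 5 CPM required, edgeR called 11 genes of NF-kappa-B and inflammation and 2 leukocyte genes higher. In that setting it called 0 lower in both lists.

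Reads on barely detected genes lay mostly in the treated libraries, also outside the 142. Genes were grouped by their counts summed over all 4 libraries, which does not favour either group. Among 1927 genes with 1 to 5 counts in all, none of which can meet the rule, the treated libraries held 3873 counts and the untreated ones 1160, a treated share of 77.0%. Of these genes 1323 had no untreated reads and 254 had no treated reads. The treated share was 68.6% for 793 genes with 6 to 10 counts, 64.5% for 696 genes with 11 to 20 and 56.1% for 874 genes with 21 to 50. It was 51.8% for 581 genes with 51 to 100 counts, 49.5% for 101 to 200, 47.6% for 201 to 500, 47.7% for 501 to 1000 and 50.0% for 9215 genes with over 1000. From 101 counts on, the untreated libraries thus held slightly more of the counts. Of the 142 genes, 56 fell in the class of 6 to 10 counts and 73 in that of 11 to 20. The lean was seen in both pairs of libraries of like depth: in genes with 1 to 5 counts, the treated share of summed CPM was 77.4% for treated replicate 1 against untreated replicate 2 and 77.2% for treated replicate 2 against untreated replicate 1. In the same libraries 15816 and 15603 genes had reads after treatment, against 14659 and 14482 before. The part of this lean in the counts of the 142 genes was not tested.

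**Figure D3:**
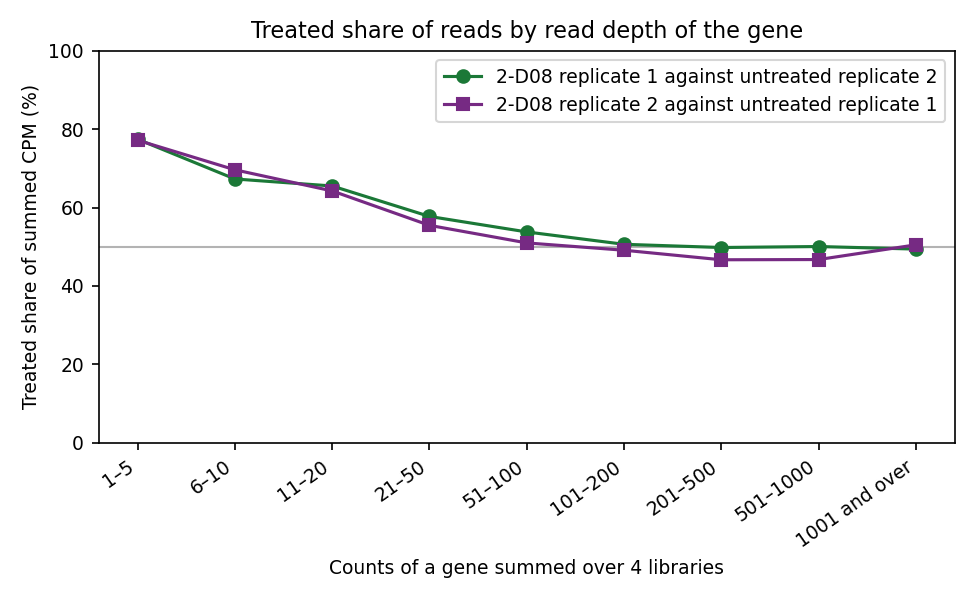
Treated share of summed CPM (y axis, percent) for genes grouped by their counts over all 4 libraries (x axis), with a line for each pair of 1 treated and 1 untreated library of similar depth and a grey line at 50%. The share falls from 77.4% and 77.2% in the lowest class to 49.4% and 50.5% in the highest, and lies at 49.8% and 46.7% for genes with 201 to 500 counts.

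The 142 genes were long. Their exonic length, the merged length of all annotated exons, had a median of 5.71 kb, against 2.23 kb for other genes without untreated reads and 4.30 kb for all genes in the table. Gene span had a median of 64.6 kb, against 10.5 kb for other genes without untreated reads. ERBB4, a neuregulin receptor gene, had the longest span at 1163 kb. Among genes without untreated reads, the share that met the rule was 0.433% (3 of 693) under 1 kb of exon, 2.20% (31 of 1410) at 2 to 4 kb, 7.38% (54 of 732) at 4 to 8 kb and 19.5% (44 of 226) at 8 kb and over. The rule's minimum is set in counts, which grow with exonic length at equal level. Per kb of exon, the treated counts ran from 0.297 for MUC16, whose exons cover 43.8 kb, to 32.4 for H1-1 at 0.648 kb, with a median of 2.20. TINCR stood at 17.2 counts per kb.

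**Figure D4:**
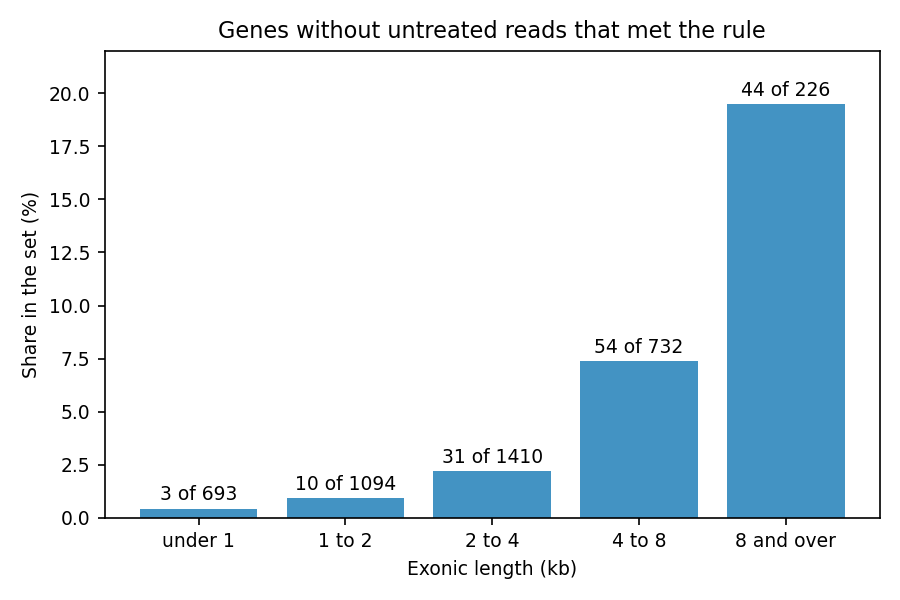
Share of genes without untreated reads that met the rule (y axis, percent) by exonic length in kb (x axis), with the counts above each bar. The share climbs from 3 of 693 in the shortest class to 44 of 226 in the longest.

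In the genome the 142 genes were spread over the X chromosome and all autosomes but chromosome 13, with 13 each on chromosomes 19 and 6 and 6 on the X. Of neighbouring members, 10 pairs lay within 500 kb of each other. The closest were IL1RL1 and IL18R1, and then MYO3A, a myosin gene of hair cells, and GAD2, 3.84 kb apart on chromosome 10. MUC3A and MUC17 lay 51.7 kb apart on chromosome 7, and DSC1 and DSG1 155 kb apart on chromosome 18. Of tested genes next to the 142, 28 of 152 nearest neighbours within 100 kb (18.4%) were higher and 34 (22.4%) lower, against 17.1% and 16.9% of all genes tested. Of neighbours of other genes without untreated reads, 16.7% were higher and 15.6% lower. Within 20 kb, 16 of 66 were higher (24.2%) and 12 lower (18.2%), against 15.7% and 16.6% for neighbours of other genes without untreated reads. Within 500 kb, 17.7% were higher and 17.3% lower. Of 46 genes with a tested gene upstream on the same strand within 100 kb, 9 had an upstream gene called higher and 9 had one called lower. APOE, for example, starts 2.11 kb after TOMM40, a mitochondrial import gene (log2 fold change 0.53, edgeR adjusted p = 0.0062, lost on both TPM scales). Only 6 of the 142 overlap a tested gene, among them NEDD8-MDP1, a read-through of NEDD8 and MDP1, whose 9 and 4 counts cannot be separated from those genes. CCDC73 overlaps EIF3M and PRRG4, neither of them called, on the opposite strand. RIMBP3C overlaps UBE2L3 (log2 fold change 0.35, edgeR adjusted p = 0.00884), also on the opposite strand. The strand setting of the counting is not given, and whether their reads come from the overlapping genes was not tested.

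RefSeq promoters (GRCh38.p14, 250 bases before to 50 after the outermost start) were found for 122 of the 142 genes. The 5 below were chosen as the highest-level gene with a promoter (FRG2B), a neuronal chromatin gene (ASXL3), a receptor and a chemokine of the immune group (IL1RL1 and CXCL11) and the only gene with a heat shock element (LINGO1). They are printed 5′ to 3′ on the gene's strand, with matches to the motifs searched in capitals except the short core GCGTG, which is left in lower case. FRG2B is at chr10:133626746-133627045 (minus strand), ASXL3 at chr18:33577969-33578268 (plus), IL1RL1 at chr2:102311313-102311612 (plus), CXCL11 at chr4:76036021-76036320 (minus) and LINGO1 at chr15:77820851-77821150 (minus).
FRG2B: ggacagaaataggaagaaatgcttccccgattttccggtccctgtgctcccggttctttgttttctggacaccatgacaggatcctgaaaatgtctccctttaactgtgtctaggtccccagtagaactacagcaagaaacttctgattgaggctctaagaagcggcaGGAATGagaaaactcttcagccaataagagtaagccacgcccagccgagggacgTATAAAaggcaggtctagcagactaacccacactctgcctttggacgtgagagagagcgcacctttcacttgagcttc
ASXL3: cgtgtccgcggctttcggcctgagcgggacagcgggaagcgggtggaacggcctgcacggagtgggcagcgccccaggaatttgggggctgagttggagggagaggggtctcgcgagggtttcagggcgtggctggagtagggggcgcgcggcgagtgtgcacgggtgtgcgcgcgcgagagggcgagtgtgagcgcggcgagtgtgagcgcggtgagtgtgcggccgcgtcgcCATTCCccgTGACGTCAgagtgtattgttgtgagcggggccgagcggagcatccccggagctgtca
IL1RL1: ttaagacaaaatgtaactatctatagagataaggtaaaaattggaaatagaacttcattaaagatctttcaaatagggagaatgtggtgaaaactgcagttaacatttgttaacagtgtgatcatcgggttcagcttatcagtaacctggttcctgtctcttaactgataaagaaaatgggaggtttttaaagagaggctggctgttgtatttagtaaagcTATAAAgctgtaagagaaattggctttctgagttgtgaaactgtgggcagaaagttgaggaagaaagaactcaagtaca
CXCL11: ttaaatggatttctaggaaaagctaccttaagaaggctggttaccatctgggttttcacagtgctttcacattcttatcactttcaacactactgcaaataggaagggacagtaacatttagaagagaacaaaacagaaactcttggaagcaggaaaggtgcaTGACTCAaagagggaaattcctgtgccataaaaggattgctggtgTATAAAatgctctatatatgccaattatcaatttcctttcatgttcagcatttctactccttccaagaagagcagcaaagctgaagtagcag
LINGO1: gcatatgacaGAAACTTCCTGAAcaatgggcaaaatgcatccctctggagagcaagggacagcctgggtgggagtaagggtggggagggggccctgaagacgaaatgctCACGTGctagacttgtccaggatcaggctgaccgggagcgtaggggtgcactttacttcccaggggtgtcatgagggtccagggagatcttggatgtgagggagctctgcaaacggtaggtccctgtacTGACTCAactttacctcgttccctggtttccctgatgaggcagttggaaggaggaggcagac
FRG2B holds the TATA box letters TATAAA, the TEAD letters GGAATG and GCGTG. ASXL3 holds the CRE letters TGACGTCA, a TEAD match and GCGTG and is rich in CpG, with a ratio of observed to expected CpG of 1.16. IL1RL1 holds TATAAA, with a CpG ratio of 0.124. Of the motifs searched, CXCL11 holds an AP-1 match (TGANTCA) and TATAAA, and it has no CpG at all. LINGO1, a neuronal receptor gene with 3 and 4 counts, holds a heat shock element, an AP-1 match and an E-box (CACGTG).

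Both strands were searched, and a match is a description of letters, not a site. The heat shock element was in 1 of 122 promoters (0.820%), against 0.372% of 15329 promoters of the table and 0.404% of 2972 promoters of other genes without untreated reads, called other silent genes here. AP-1 letters were in 12 (9.84%), against 5.70% of all and 8.61% of other silent genes. The TATA box was in 20 (16.4%), against 9.72% of all and 20.4% of other silent genes. The only NF-kappa-B pattern searched was in 2 (1.64%), against 1.98% of all and 1.24% of other silent genes. Other forms of that motif were not searched. A promoter without a match may therefore still hold another form. That of CXCL11, for example, reads gggaaattcc shortly after its AP-1 match, which differs from the pattern searched by a single letter. Whether these letters are a site was not tested. CRE was in 3 (2.46%), against 2.61% and 1.14%, and the antioxidant element TGACNNNGC in 17 (13.9%), against 14.4% and 12.7%. The aryl hydrocarbon receptor core GCGTG was in 42 (34.4%), against 44.4% and 28.1%. The E-box was in 6 (4.92%), against 8.83% and 6.56%, and TEAD in 11 (9.02%), against 11.7% and 13.2%. Promoters with a CpG ratio of at least 0.6 made up 36.9% of the 122, against 66.3% of all and 26.0% of other silent genes. No motif searched was held by most of the 122 promoters.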

How the data were processed

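RNA sequencing counts from 2 untreated and 2 treated libraries were used. The submitters' processing notes name GRCh38, STAR 2.7.8a, cutadapt 3.4 and DESeq2. Which counter, strand setting and annotation release were applied is not given in the sources used here. Gene-level read counts were deposited by the authors as whole numbers without normalisation. The authors also deposited TPM values, scaled for transcript length and depth. Another deposited table, named normalised counts, holds log2-like values between 6.35 and 18.3, and all 142 genes stood at its minimum in both untreated libraries. It was used for nothing else.

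The 142 genes and the lists were chosen with earlier results of these data known. The main test was that of edgeR 4.0.16 in R 4.3.3 (filterByExpr, minimum count 10, TMM factors, robust quasi-likelihood test, two-sided, Benjamini-Hochberg adjustment over 12906 genes), with limma 3.58.1 and DESeq2 1.42.0 as alternatives, and tested on simulated data. CPM values use TMM-scaled library totals. The fits on log2(TPM + 1) and log2(TPM + 0.1) took genes with a mean TPM of at least 0.1. Positions come from RefSeq (19373 of 19381 symbols matched) and exonic lengths from GENCODE release 29 (19293 matched). Genes named are the 25 highest by mean treated CPM, list members, genes next to the threshold and the top genes of the reverse rule. Other genes of the set, and relatives and neighbours, were picked after their values were seen. A gene among the highest is not reported here.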

Additional observations from a re-analysis of the deposited data

How the results depend on the processing

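The number of genes with reads only after treatment rests on thresholds of a few counts, and exceeded the number with reads only before in every setting run. With a minimum of 1 count it was 598 (50 before), with 5 counts 50 (2 before), with 10 counts 4 (2 before) and with TPM 598 (50 before). With 1 count allowed in the group at 0 it was 202 (20 before), with counts thinned to the smallest library 115 (7 before), and with the mostly even counts of 2 libraries halved, a setting chosen after seeing the data, 98 (7 before). Of those 115 and 98 genes, 99 and 98 were among the 142. Leaving out a library, which loosens the rule, gave 232 to 560 genes after and 31 to 63 before.

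Of the 142 genes, DESeq2 called 4 higher, thinned counts (added after seeing the data) 2, no filter 50, and fits leaving out a library 3 to 45; requiring a mean of 5 CPM left none to test. Limma on log2(TPM + 0.1) and log2(TPM + 1) gave 1416 and 1431 changed genes (637 and 640 higher, 779 and 791 lower) and 6 neighbours called higher on both, and the cause was not tested. When 1 library was left out, 1866 (untreated replicate 1) to 6077 genes changed, with 949 to 2931 higher, 917 to 3146 lower and 14 to 37 neighbours called higher. With neighbours within 20 kb, where fewer were counted, 16 were higher. No label says that equal replicate numbers pair libraries. Deviations between same-numbered libraries correlated at 0.212 across 12906 genes. A replicate block gave 6239 changed genes and the call of 7 of the 142. The count of histones called higher (10) was 4 by DESeq2, 5 and 4 on log2(TPM + 0.1) and log2(TPM + 1), 3 with a mean of 5 CPM required and 15 with the block. Germline genes higher went from 3 to 1 by DESeq2, with thinned counts and on both TPM scales. Interferon-stimulated genes higher went from 7 to 3 on both TPM scales and to 12 with the block.

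Mean treated levels of 31 named genes of the set stayed within 1 SD under both other scalings. Differences in level among the 142 genes were not tested.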
